A study of Mus musculus with 6 samples.

Results

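Macrophages take up debris, lipid and dying cells in the lung, and the genes they transcribe differ with their state. In ECs isolated from mouse lungs with anti-CD31 beads, 10 genes of macrophage identity and repair state were compared between sham operation and 7 days after unilateral pneumonectomy (PNX), in which the left lung is removed. The genes were Arg1, Retnla, Mrc1, Cd163, Marco, Cd5l, Trem2, Gpnmb, Csf1r and Lyz2, all present among the 24063 gene symbols of the libraries. They were selected on measured values of these same libraries, in which Arg1 was much higher post-PNX while Lyz2 was not, so their differences are a description and carry no test. By group mean, Arg1 was 35 times and Cd5l 30.7 times higher post-PNX. The ratio was 3.06 to 5.45 for Retnla, Trem2, Cd163 and Marco, 1.25 to 1.88 for Csf1r, Mrc1 and Gpnmb, and 0.968 for Lyz2.

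Csf1r is the receptor through which CSF1 and IL-34 keep macrophages alive, and the lysozyme Lyz2 is made by macrophages, monocytes and neutrophils alike. IL-4 and IL-13, acting through STAT6, induce Arg1 and Retnla in mouse macrophages, a state associated with tissue repair. Mrc1, Cd163 and Marco are scavenger receptors, whereas Trem2 senses lipid and is found with Gpnmb in macrophages that handle much lipid.

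There were 3 libraries from sham operated and 3 from pneumonectomized male C57BL6 mice, each from a pool of 2 mice, all anaesthetized with ketamine and xylazine. Sham surgery opened the chest and left the lung in place. The age was 8 weeks according to the labels, whereas the methods give an older age at surgery. Total counts ranged from 29526989 to 81282871 and were lowest in replicate 3 of each group.

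Replicates 1 and 2 of each group are labelled as re-used from an older record, here called the earlier deposit, and replicate 3 is the later deposit. Replicates 1 and 2 differed by little more than counting error, with a chi-square per degree of freedom of 1.75 in sham and 1.57 post-PNX against 67.9 to 86.4 for pairs with replicate 3. They were therefore summed to 1 sample, leaving n = 2 samples a group, and every SD below is over these 2. The p-values measure only the spread between these samples, which may be technical.

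Endothelial transcripts were abundant in every library, with Pecam1, which encodes CD31, at 2038 to 2494 CPM (counts scaled to the TMM-adjusted library size). Macrophage transcripts were present as well, and the summed pan-macrophage genes were higher in the later deposit. In the order of replicates 1, 2 and 3, which is kept throughout, 19 pan-macrophage genes summed to 1575, 1585 and 3429.8 CPM in sham and 2495, 2508 and 3791 CPM post-PNX. Neutrophil genes summed to 278, 283 and 778 CPM in sham and 315, 311 and 683 CPM post-PNX, so sham replicate 3 held more leukocyte RNA than the other sham libraries. The part of this in the values of the 10 genes was not tested. In bulk samples, more macrophages and more RNA of a gene per macrophage cannot be told apart.

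Arg1, the cytosolic arginase that turns arginine into ornithine and urea, lies on the minus strand of chromosome 10 of GRCm38 (24915221 to 24927484), where no other annotated gene overlaps it. It had 109, 86 and 167 counts in the sham libraries and 10896, 9643 and 2109 counts post-PNX. Scaled to depth, this was 1.35, 1.20 and 4.96 CPM in the sham libraries and 147, 147 and 70.7 CPM post-PNX. Each PNX library was far above each sham library, and the later deposit had both the highest sham and the lowest PNX value. The mean was 3.11 ± 2.56 CPM in sham samples against 109 ± 52.7 CPM post-PNX (SD, n = 2), and the fitted log2 fold change was 5.21. Within the earlier deposit the PNX to sham ratio was 115 (99.54 to 133), where the brackets hold the exact 95% interval for counting error, and within the later deposit it was 14.3 (12.2 to 16.8).

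Retnla encodes a small secreted protein of the resistin-like family, and its close paralog Retnlg could share reads with it. On the plus strand of chromosome 16 (48842551 to 48844461), it had 8.73, 10.03 and 16.1 CPM in the sham libraries and 46.4, 44.4 and 32.1 CPM post-PNX. The groups did not overlap, yet the later deposit brought them closer, with a ratio of 2.00 (1.79 to 2.22) against 4.87 (4.59 to 5.16) in the earlier. The log2 fold change was 1.62.

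**Figure D1:**
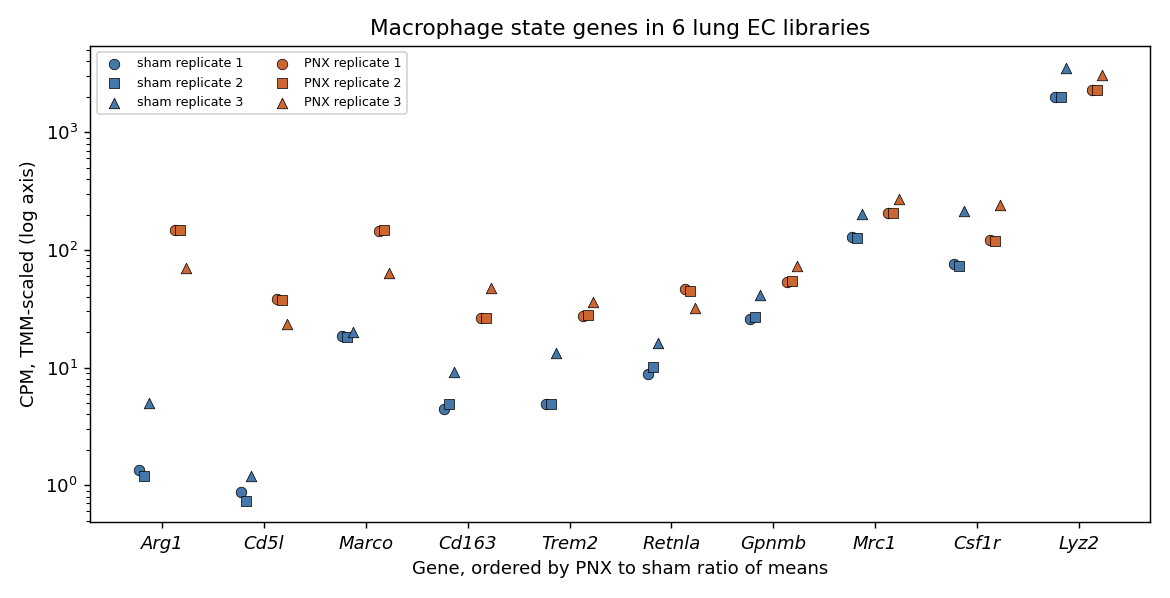
Levels of the 10 macrophage genes in each library, as TMM-scaled CPM on a log axis, with sham and PNX libraries in different colours. The 10 genes run from large to small ratios of group means, and sham and PNX libraries overlap for Csf1r and Lyz2 only.

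Of the scavenger proteins, Cd5l and Marco differed most in the earlier deposit. Cd5l, a secreted protein of tissue macrophages also called AIM, was close to absent in sham, with 70, 53 and 40 counts in the sham libraries and 2858, 2451 and 694 counts post-PNX. These correspond to 0.869, 0.740 and 1.19 CPM against 38.5, 37.4 and 23.3 CPM, with no overlap, and the log2 fold change was 4.99. Its ratio was 47.0 (39.3 to 56.6) in the earlier and 19.6 (14.2 to 27.7) in the later libraries. Marco, a collagen-like receptor typical of alveolar macrophages, was the steadiest of the 10 genes across sham libraries, with 18.7, 18.3 and 19.9 CPM in the sham libraries and 145, 149 and 63.2 CPM post-PNX. Its mean was 19.3 ± 0.669 CPM in sham samples against 105 ± 58.2 CPM post-PNX (SD, n = 2), a log2 fold change of 2.45. The 2 deposits differed for Marco post-PNX, where the later was 0.437 of the earlier, and hardly in sham, where that ratio was 1.05.

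Cd163, the receptor for haemoglobin bound to haptoglobin, is counted on 2 transcripts with nearly equal counts, so its summed level includes most reads on both. The summed level was 4.47, 4.94 and 9.15 CPM against 26.4, 26.5 and 47.5 CPM and the log2 fold change 2.44. Unlike Arg1, Cd5l and Marco, Cd163 was higher in the later deposit in both groups, and its PNX to sham ratio was alike in both deposits, at 5.63 (5.03 to 6.33) and 5.17 (4.34 to 6.19) by the transcript with more counts. Mrc1, the mannose receptor CD206, is also made by lymphatic ECs. Its level was 129, 126 and 203 CPM against 207, 207 and 269 CPM, so sham replicate 3 came close to PNX replicates 1 and 2 without overlapping them. The log2 fold change was 0.53, and the microRNA gene Mir511 lies within Mrc1 on the same strand and could share reads.

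Of the 8 promoters of the 10 genes that were searched (Arg1 and Csf1r were not), those of Retnla, Cd5l and Marco are shown for their matches to the motifs below, and that of Lyz2 as one without a match. Each is the 250 bases before the annotated start (RefSeq, GRCm38.p6), and capitals mark matches on either strand to TTCNNNNGAA (STAT6-type), TTGCNNAA (C/EBP-type), GAGGAAG (PU.1-type) or TGCTGAC (MAF half-site), of which none overlapped another here.
Retnla, chr16:48842359-48842608, plus strand: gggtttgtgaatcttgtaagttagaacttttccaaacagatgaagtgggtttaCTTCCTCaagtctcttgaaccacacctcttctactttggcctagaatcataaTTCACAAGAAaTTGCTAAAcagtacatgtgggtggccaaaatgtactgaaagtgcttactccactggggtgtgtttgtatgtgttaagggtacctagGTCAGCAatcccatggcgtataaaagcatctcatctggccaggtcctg
Cd5l, chr3:87357631-87357880, plus strand: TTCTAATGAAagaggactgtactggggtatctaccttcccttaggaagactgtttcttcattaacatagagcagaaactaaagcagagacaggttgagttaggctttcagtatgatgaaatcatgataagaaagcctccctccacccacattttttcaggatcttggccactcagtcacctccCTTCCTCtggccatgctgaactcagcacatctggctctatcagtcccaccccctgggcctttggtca
Marco, chr1:120505025-120505274, minus strand: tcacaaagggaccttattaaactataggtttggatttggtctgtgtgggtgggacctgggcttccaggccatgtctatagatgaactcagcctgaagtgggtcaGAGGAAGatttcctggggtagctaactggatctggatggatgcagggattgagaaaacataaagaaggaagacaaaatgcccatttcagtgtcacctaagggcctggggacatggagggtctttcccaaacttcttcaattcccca
Lyz2, chr10:117282273-117282522, minus strand: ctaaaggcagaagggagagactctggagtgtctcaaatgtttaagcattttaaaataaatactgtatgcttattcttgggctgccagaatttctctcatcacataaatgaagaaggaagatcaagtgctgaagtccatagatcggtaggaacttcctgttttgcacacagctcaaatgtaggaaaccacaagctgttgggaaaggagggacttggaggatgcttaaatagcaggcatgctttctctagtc
Retnla held all 4, with the STAT6-type letters at -145 to -136 and the C/EBP-type letters at -134 to -127 from the start. Cd5l held the STAT6-type letters at -250 to -241 and the PU.1-type at -67 to -61, Marco held the PU.1-type at -146 to -140, and Lyz2 held none. Among the other promoters searched, those of Mrc1 and Trem2 held the PU.1-type letters, and those of Cd163 and Gpnmb, whose PNX libraries were also all above sham, held none of the 4. Over 32851 promoters searched in the same window the shares were 5.85% for STAT6-type, 9.56% for C/EBP-type, 10.6% for PU.1-type and 3.81% for the MAF half-site. A match describes the sequence and is not a measured binding site.

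Trem2, the lipid-sensing receptor that signals through Tyrobp, and Gpnmb, a glycoprotein of lysosomes and melanosomes, were higher in each PNX than in each sham library. Trem2, again counted on 2 transcripts with nearly equal counts, had a summed level of 4.94, 4.91 and 13.2 CPM against 27.3, 28.2 and 35.9 CPM and a log2 fold change of 1.84. The ratio was 5.63 (5.04 to 6.31) in the earlier and 2.73 (2.33 to 3.20) in the later libraries, in which the sham level was 2.62 times and the PNX level 1.32 times that of the earlier. Gpnmb was nearer to a uniform shift, with 25.8, 26.7 and 41.6 CPM in the sham libraries and 53.2, 54.6 and 73.5 CPM post-PNX. Its log2 fold change was 0.92, and its ratios were 2.06 (1.98 to 2.14) and 1.76 (1.65 to 1.89).

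The identity genes differed less. Csf1r, overlapped on the opposite strand by Hmgxb3, had 76.4, 73.2 and 213 CPM in the sham libraries and 121, 119.5 and 239 CPM post-PNX. The deposits lay further apart than the groups: the later sham library exceeded PNX replicates 1 and 2, and the later libraries were 2.79 times the earlier in sham and 2.01 times post-PNX. The PNX to sham ratio was 1.61 (1.57 to 1.65) in the earlier and 1.12 (1.08 to 1.16) in the later libraries. Lyz2, the most abundant of the 10 genes, had 1984, 1978 and 3549 CPM in the sham libraries and 2289, 2276 and 3048 CPM post-PNX. It was higher post-PNX in the earlier libraries, at 1.15 (1.15 to 1.16), and lower in the later, at 0.859 (0.851 to 0.866), with a log2 fold change over both of -0.05. Its neighbour and paralog Lyz1 could share reads with it.

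**Figure D2:**
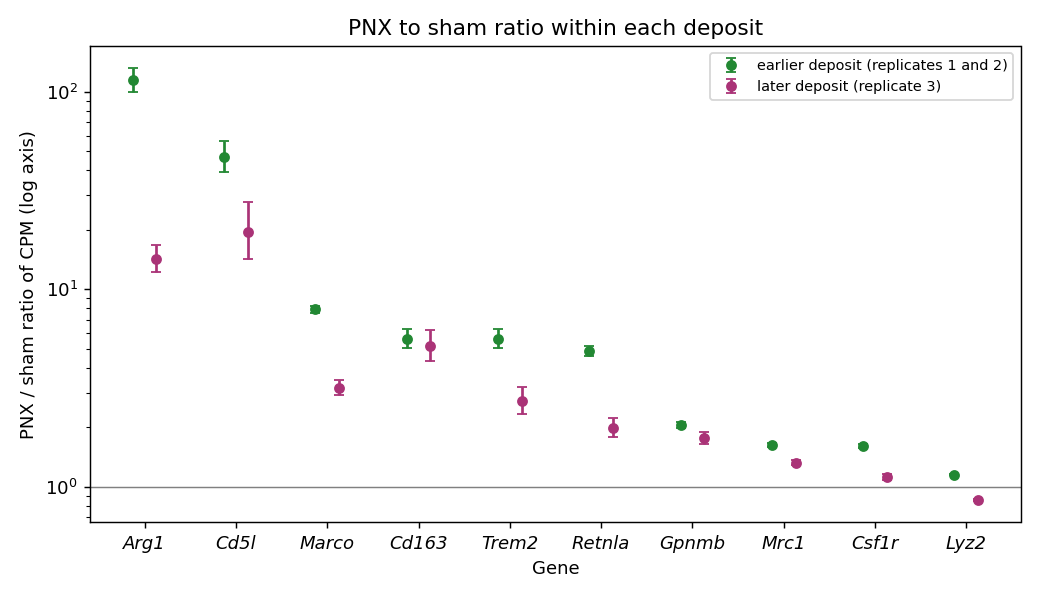
Ratio of PNX to sham CPM on a log axis for each of the 10 genes, within the earlier deposit (replicates 1 and 2 summed) and the later deposit (replicate 3), with exact 95% intervals for counting error. Each ratio is larger in the earlier deposit, from 115 against 14.3 for Arg1 to 5.63 against 5.17 for Cd163, and Lyz2 lies on different sides of 1.

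In 8 of the 10 genes, all but Csf1r and Lyz2, each PNX library was above each sham library. Of 16598 genes tested, 18.8% had this order and 17.9% the opposite one. Because the 10 genes were chosen with this difference in view, nothing is read from the comparison.

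Compared per length, as the TPM of each gene's transcript with the most counts, the order of the 10 genes differed between the groups. In sham, Lyz2 was first at 6557 ± 2562 TPM, followed by Csf1r (93.1 ± 62.5), Mrc1 (77.9 ± 24.6) and Retnla (53.4 ± 19.3), and Arg1 was eighth at 5.28 ± 4.37 TPM. Only the steps below Lyz2, Retnla and Gpnmb separated both samples of a gene from both of the next, so neighbours among Csf1r, Mrc1 and Retnla, between Marco and Gpnmb, and among Trem2, Arg1, Cd163 and Cd5l did not differ beyond their spread. Post-PNX, Lyz2 was again first at 6327 ± 1391 TPM and Arg1 was second by mean at 184 ± 88.1 TPM. The samples of Arg1, at 246 and 121 TPM, overlapped those of Retnla (162 ± 36.8), and the run of overlaps went on through Marco, Csf1r and Mrc1. Cd5l went from last in sham at 1.23 ± 0.321 TPM to 37.5 ± 12.1 TPM, above Cd163 at 10.4 ± 4.34 TPM in both samples.

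As a share of the Csf1r TPM in the same library, Arg1 was at 4.64%, 4.30% and 6.10% in sham and 318%, 323% and 77.8% post-PNX. Sham replicate 3 was high in both genes, so its share lay nearer to the other sham libraries than its Arg1 level did. Trem2 was steady in sham by the same measure, with 10.9%, 11.3% and 10.4% in sham and 38.2%, 39.9% and 25.5% post-PNX. Mrc1 had shares of 123%, 125% and 69.4% in sham and 125%, 126% and 82.2% post-PNX, which differed more between deposits than between groups. Relative to Lyz2, the Arg1 TPM was 0.0488%, 0.0434% and 0.100% in sham and 4.58%, 4.62% and 1.66% post-PNX. Neither reference is a count of macrophages, since monocytes also make both.

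**Figure D3:**
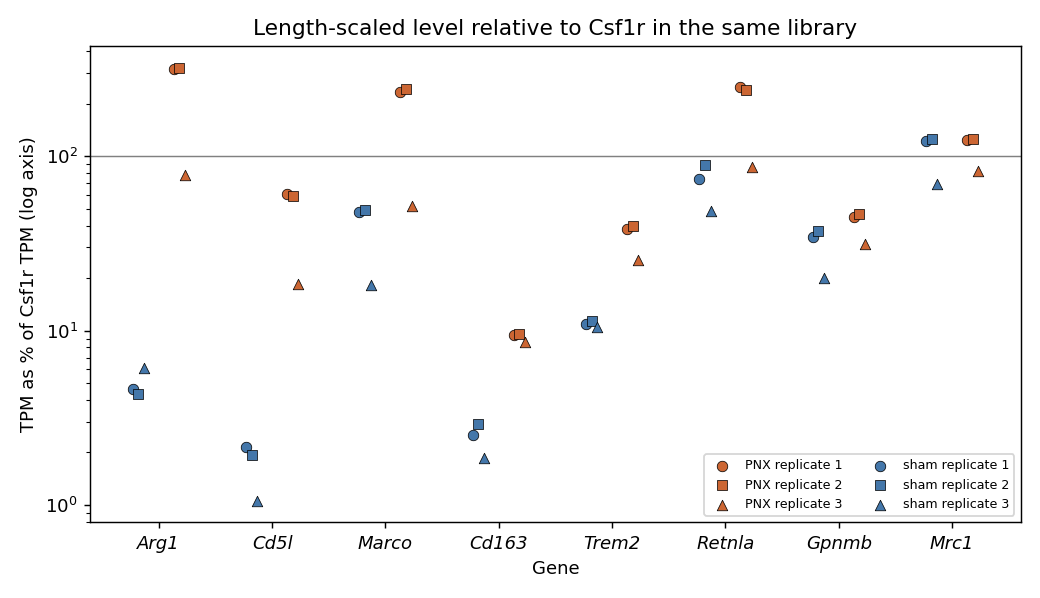
TPM of 8 genes, all but Csf1r and Lyz2, as a percentage of the Csf1r TPM in the same library, on a log axis, with sham and PNX libraries in different colours. Arg1 lies between 4.30% and 6.10% in sham and between 77.8% and 323% post-PNX, whereas the shares of Retnla, Gpnmb and Mrc1 overlap between the groups.

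By Euclidean distance between log2 CPM profiles over the 4 samples, each centred on its mean, the genes most like Arg1 among 14290, with the 10 genes themselves left out, were Saa3 (1.03), Vsig4 (1.27), Ccl24 (1.28), Chl1 (1.33) and Prss35 (1.37). The distance includes the group difference by which Arg1 was chosen, so these genes are a description only. Saa3, an acute phase protein, had 1.36, 1.34 and 2.58 CPM in the sham libraries and 187, 182 and 85.9 CPM post-PNX and, like Arg1, was highest in the earlier PNX libraries. Ccl24, a chemokine that draws eosinophils, had the same order of deposits, with 0.707, 0.377 and 1.63 CPM against 26.2, 26.8 and 10.5 CPM. Vsig4, Chl1 and Prss35 were at most 0.297 CPM in sham and entered the comparison through their PNX counts. Unlike Arg1, they were highest in PNX replicate 3, at 6.77, 5.57 and 4.12 CPM. Among the 10 genes, Cd5l was nearest to Arg1 at 1.10, between Saa3 and Vsig4, and Mrc1 and Gpnmb were the closest pair at 0.378.

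For context, 78 further macrophage genes on 5 lists were tested in a fit over all 16598 genes, calling those with an adjusted p below 0.01 whose log2 fold change exceeded 1 in size. All lists here and below were chosen with earlier results of these data known. Their counts, medians and p-values are therefore a description and not independent support. Without a block, edgeR's quasi-likelihood test called 0 of the 78 (0% of all genes), although 21 had an unadjusted p under 0.05. On the same samples limma-voom called 0 (0% of all genes) and DESeq2 14 (3.45% of all genes). With the deposit as replicate block, edgeR called 16 higher and 1 lower, where 3.89% of all genes were called higher, 1.23% lower and 5.12% in all. The 6 libraries taken as separate replicates gave 10 higher and 1 lower (2.51% of all genes), and these 10 were among the 16. The median log2 fold change of the 78 was 0.40 without and 0.41 with the block, against -0.01 over all genes in both. With the block, 12 of the 16 were also called under DESeq2's size factors, which lost Msr1, Ctsk, Ccl24 and Spp1, and 10 without PNX replicate 1.

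Resident tissue macrophage genes held most of these calls, with 9 higher and 1 lower of 16 tested. Over all genes 3.89% were called higher and 1.23% lower. The 3 chains of complement C1q rose together in the fit with the block. C1qb had 11.2, 11.3 and 21.6 CPM in the sham libraries and 89.1, 88.6 and 99.82 CPM post-PNX (log2 fold change 2.61, standard error 0.17, edgeR adjusted p = 7.9e-05 with the replicate block and 0.0873 without), and C1qa and C1qc had log2 fold changes of 2.49 and 2.63. Vsig4, a complement receptor of resident macrophages, rose with 0.124, 0.167 and 0.238 CPM against 6.76, 5.82 and 6.77 CPM (log2 fold change 5.23, standard error 0.25, edgeR adjusted p = 2.5e-05 with the replicate block and 0.072 without). Folr2, Ms4a7, Fcrls, F13a1 and Pf4 were also called higher, at log2 fold changes of 1.10 to 2.84. Of these, Folr2, Fcrls and F13a1 were not called in the 6 libraries. F13a1 was also not called by DESeq2, and the call of Pf4 was lost without PNX replicate 1. Cbr2, which club cells of the airway also express, was called lower, with 565, 563 and 655 CPM against 279.9, 282 and 199 CPM (log2 fold change -1.36, standard error 0.16, edgeR adjusted p = 0.00146 with the replicate block and 0.111 without), a call that was lost without PNX replicate 1. Lyve1, also a marker of lymphatic ECs, was not called, with 615, 609.5 and 216 CPM against 276, 278 and 181 CPM. Cbr2 and Lyve1 weighed on the summed list, which was 1261 to 1407 CPM in sham and 1154 to 1204 CPM post-PNX.

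Pan-macrophage genes had a median log2 fold change of 0.36 with the block, and 1 of 19 was called. Over all genes the share called with the block was 5.12%, and the counts on this and the lists below stand beside that share. The called gene was Msr1, a scavenger receptor for modified lipoprotein, with 6.09, 5.90 and 15.7 CPM in the sham libraries and 52.7, 50.9 and 46.6 CPM post-PNX. It was not called in the 6 libraries, nor with the block under DESeq2's size factors or without PNX replicate 1. The abundant Ctss, Mpeg1 and Laptm5, a protease, a pore-forming protein and a lysosomal protein, had log2 fold changes of 0.63, 0.05 and 0.04 and were not called.

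Alveolar macrophage genes had a median of -0.03 with the block, and of 14 tested 1 was called, the collagen-degrading protease gene Ctsk, with 15.8, 15.5 and 46.9 CPM against 63.6, 63.3 and 91.3 CPM. Ctsk was not called in the 6 libraries or by DESeq2. Its call with the block was lost with DESeq2's size factors, with identical transcripts counted once and without PNX replicate 1. Chil3, a chitinase-like protein and the most abundant of the list, was not called, with 911, 906 and 1750.4 CPM in the sham libraries and 2606, 2539 and 2114 CPM post-PNX. Itgax and Abcg1, an integrin and a lipid exporter, had log2 fold changes of 0.02 and -0.15. Ear1, Siglecf and Ear2 were lower post-PNX within each deposit and were not called. Their log2 fold changes with the block were -0.99, -0.50 and -0.47. Of the 14 genes, 8 were higher post-PNX in the earlier deposit and 5 in the later.

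On the IL-4-type list, 3 of 16 genes were called higher with the block and 0 lower, and the median was 0.36. Ccl8, a chemokine, rose, with 0.223, 0.391 and 0.891 CPM against 9.54, 8.89 and 25.7 CPM (log2 fold change 4.89, standard error 0.16, edgeR adjusted p = 1.2e-05 with the replicate block and 0.111 without). The others called were Ccl24, given above, and the lectin receptor gene Clec10a. Clec10a was not called in the 6 libraries or by DESeq2. The call of Ccl24 was lost with DESeq2's size factors and without PNX replicate 1. The receptor gene Il4ra, with 171, 172 and 179 CPM in the sham libraries and 169, 169 and 175 CPM post-PNX, and Stat6 were not called. Slc7a2, also among the 3 most abundant of the list, had 105, 96.2 and 154 CPM against 173, 178 and 186 CPM and was not called. Of 10 cytokine ligands, Il10, an anti-inflammatory cytokine, was called higher with the block, with 0.149, 0.293 and 1.34 CPM against 1.83, 1.86 and 4.22 CPM, but not with DESeq2's size factors, in the 6 libraries, by DESeq2, with identical transcripts counted once or without PNX replicate 1. Il4 reached at most 1.46 CPM and Il13 at most 0.656 CPM in any library, and neither was called. Csf1, a ligand of Csf1r, had 141, 149 and 227 CPM against 154, 154 and 206 CPM.

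Of 15 TREM2-type genes, 2 were called higher with the block and none lower. Spp1, encoding osteopontin, had 355, 360.4 and 451 CPM against 1177, 1177 and 805 CPM, and Apoe, a lipid carrier, had 170.3, 173 and 238 CPM against 450.5, 460.1 and 439 CPM. Without PNX replicate 1 neither was called. The call of Spp1 was also lost with DESeq2's size factors and with identical transcripts counted once. Ctsb and Ctsd, the other abundant genes of the list, encode lysosomal proteases and had log2 fold changes of 0.79 and 0.51.

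Arginase competes for arginine with nitric oxide synthases and feeds polyamine and proline synthesis. Of 17 genes of arginine and polyamine metabolism tested, Pycr1, the last enzyme of proline synthesis, was called higher in the fit with the block but in none of 5 other fits (the block with DESeq2's size factors, with identical transcripts counted once or without PNX replicate 1, the 6 libraries, and DESeq2), with 0.335, 0.586 and 0.653 CPM against 1.51, 1.43 and 1.81 CPM. Arg2, the mitochondrial arginase, had 3.31, 3.03 and 5.11 CPM in the sham libraries and 4.40, 3.80 and 4.90 CPM post-PNX, and Odc1, the first enzyme of polyamine synthesis, had 62.5, 63.8 and 100.03 CPM against 90.6, 87.4 and 106 CPM, and neither was called. Of 15 classical activation genes, Cxcl10, an interferon-induced chemokine, was called higher with the block and, like Pycr1, in none of the 5 other fits, and the list median was 0.08. Nos2, the inducible nitric oxide synthase, had 7.48, 7.40 and 11.1 CPM against 12.6, 12.6 and 17.5 CPM and was not called.

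**Figure D4:**
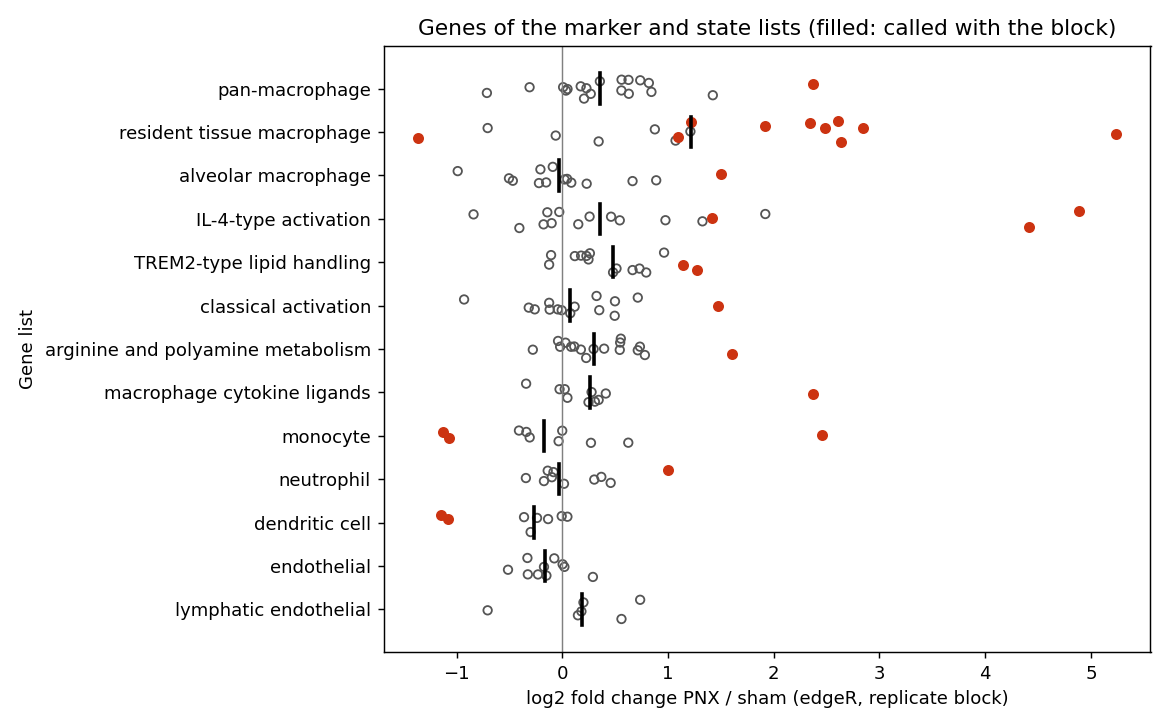
Log2 fold change of PNX over sham from the edgeR fit with the replicate block, 1 point per gene on each list, with the called genes and the list medians marked. Called genes above 0 are most frequent on the resident tissue macrophage list, with 9 of 16, and the endothelial and lymphatic endothelial lists hold none.

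Markers of other cells that the isolation could hold were tested in the same fit, in which 5.12% of all genes were called. Of 10 monocyte genes, Vcan was called higher and Treml4 and Cd300e lower with the block. Vcan, a matrix proteoglycan also made by fibroblasts, had 14.2, 12.8 and 24.7 CPM against 92.7, 90.5 and 108 CPM. Treml4, of patrolling monocytes, had 27.8, 27.6 and 108 CPM against 13.3, 12.99 and 47.3 CPM. Mmp8 was called higher of 10 neutrophil genes, and Ccr7 and Siglech lower of 8 dendritic cell genes. The calls of Cd300e and Siglech were lost in each of the 5 other fits, and that of Mmp8 in the 6 libraries, by DESeq2 and without PNX replicate 1. Those of Treml4 and Ccr7 were lost in the 6 libraries and by DESeq2, whereas Vcan was called in all 5. Without the block, edgeR and limma-voom called none of these genes, and the edgeR adjusted p of Vcan was 0.0873. None of 10 endothelial and 6 lymphatic endothelial genes was called, and their medians were -0.16 and 0.19. Lymphatic endothelial markers summed to 1121, 1116 and 516 CPM in sham and 802, 815 and 592 CPM post-PNX, a sum in which Lyve1 was the most abundant. Prox1, the transcription factor that defines lymphatic ECs, had 9.09, 9.31 and 5.35 CPM against 12.3, 12.4 and 11.8 CPM and was not called. The part of lymphatic ECs in the Mrc1 level was not tested.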

How the data were processed

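The authors sequenced stranded mRNA libraries of ECs from 3 sham and 3 PNX pools and counted reads on mm10 with the Basepair platform. STAR is named in the submitters' processing notes. The counting rule, strand setting and annotation were not stated. For 33068 transcripts the authors deposited counts, TPM (scaled by transcript length and library size) and FPKM, which was not used. The deposited counts were summed per symbol, and the deposited TPM of the transcript with the most counts served to compare genes.

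The tests used edgeR 4.0.16 in R 4.3.3 (TMM, filterByExpr, quasi-likelihood, Benjamini-Hochberg), with DESeq2 1.42.0 and limma 3.58.1 as alternatives. Standard errors are log2 fold changes divided by the root of F. Scripts were tested on simulated data. Replicate numbers mark the deposit, and over 16598 genes the deposit effects of both groups had a Pearson's r of 0.610 across genes, which are not independent replicates. Ratios have Clopper-Pearson intervals. Profiles like Arg1 were sought among genes with a mean count of at least 50. Positions are from GENCODE vM21. Named genes are the 10 genes, genes of the lists (among them those called with the block and, on some lists only, the 3 most abundant) and the 5 most like Arg1. Adgre1, Siglecf and Acod1 were found under older symbols, and Ear11 and Ly6g were not matched. Members and lists were chosen with earlier results of these data known, and after a supplementary table of the study that held some of the list genes had been read.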

Additional observations from a re-analysis of the deposited data

How the results depend on the processing

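The number of genes called depended on how the near-duplicate libraries and the deposit were treated. Without the block, edgeR called 0 of all genes tested (2076 at an unadjusted p under 0.05), as did limma-voom, and it also called 0 with DESeq2's size factors, no filter on low counts, an adjusted p under 0.05 and identical transcripts counted once. It called 0 to 2 when single libraries were left out (2 without PNX replicate 3). The replicate block gave 849 genes (645 higher, 204 lower), 6 libraries 409, 6 libraries with the replicate block 1104 and DESeq2 572. Other settings of the blocked fit were chosen after seeing the data. They gave 624 with DESeq2's size factors (540 higher, 84 lower), 985 without a filter and 643 with identical transcripts counted once. Without sham replicate 1, sham replicate 2, PNX replicate 1 or PNX replicate 2 the blocked fit called 671, 668, 485 and 863.

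For the 78 other macrophage genes, 0 were called without the block, also when any library was left out. The replicate block called 17, 6 libraries 11, 6 libraries with the replicate block 24 and DESeq2 14. Within the blocked fit the count was 13 with DESeq2's size factors, 20 without a filter and 15 with identical transcripts counted once. It was 17, 16, 11 and 18 without sham replicate 1, sham replicate 2, PNX replicate 1 and PNX replicate 2.

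The log2 fold change of Arg1, 5.21 with 4 samples, was 6.84 within the earlier deposit and 3.83 within the later, and 5.16 to 6.41 when a library was left out, highest without sham replicate 3. That of Lyz2, -0.05, changed sign, and was -0.28 at the lowest (without PNX replicate 3) and 0.425 at the highest (without sham replicate 3). Csf1r, at 0.33, turned to -0.26 without PNX replicate 3 and was 1.26 without sham replicate 3. Leaving out replicate 3 of a group sets its earlier deposit alone against both deposits of the other group. Within the earlier and the later deposit the Csf1r ratio was 1.61 and 1.12. The other 7 genes and Arg1 were higher after PNX in all 24 settings. For these genes each PNX library was above each sham library, so this direction was fixed beforehand and adds no support. The cause of the shifts in size was not tested. The blocked fit has 1 residual degree of freedom, and genes near 1 CPM in sham, such as Cd5l, rest on 40 to 70 counts per sham library. Vsig4, at 0.124 to 0.238 CPM in sham, and Ccl8, at 0.223 to 0.891 CPM, were below Cd5l in each sham library. Their fold changes therefore rest on fewer sham counts still.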
